A study of Mus musculus with 8 samples.

Results

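The complement genes of liver cells were examined in S0 cells sorted from mouse fetal liver at embryonic day E12.5. The set holds 9 genes for components and regulators that are secreted by liver cells (C3, C4b, Hc, Cfb, Cfi, C8a, C8b, C8g and Masp1), matched by gene symbol among the 52636 genes counted. S0 cells are negative for CD71 and Ter119, and were sorted after cells stained for a cocktail of antibodies against non-erythroid blood lineages had been gated out. As described, the gate holds no antibody against liver parenchyma. RNAseq was compared between 4 WT and 4 Vps13a/Vps13c double knockout (DKO) libraries, all without treatment. Both alleles of Vps13a and of Vps13c were inactive in DKO embryos, in a C57BL/6J background. For Vps13a this was the tm1d allele, in which Flp had removed the LacZ and Neo cassettes and β-actin-Cre then an exon, in the whole body. DKO embryos came from crosses of Vps13a+/-/Vps13c-/- mice, which cannot give WT littermates, so litter and genotype cannot be told apart. The labels do not say whether each library is 1 embryo, so that p-values measure the spread between these libraries.

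Complement is a cascade of plasma proteins, most of them made by hepatocytes. All 3 routes (classical, lectin and alternative) converge on the cleavage of C3, after which C5 is cleaved and C5b assembles with C6, C7, C8 and C9 into a pore in the target membrane. At midgestation the liver is both the main site of blood formation and the place where hepatoblasts, the precursors of hepatocytes, begin to secrete plasma proteins. C8 is built from 3 chains encoded by C8a, C8b and C8g, of which the α and β chains belong to the same family as the pore protein perforin and the γ chain is a lipocalin.

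Of the complement genes, those for C5 and for 1 chain of C8 fell in DKO libraries. C8b, for the β chain of C8, was 12.8-fold lower in DKO and Hc, for C5, 3.25-fold lower, whereas the means of C3 differed by less than the spread between libraries. C8a and C8g, for the other chains of C8, did not pass the test. Of the 9 genes, all 9 passed the filter on low counts, 2 were called lower (22.2%) and 0 higher by edgeR's quasi-likelihood test, which required adjusted p < 0.05 and more than a 2-fold change. Among the 17378 genes tested, 2.43% were called lower and 6.19% higher. Without the fold threshold the same 2 of 9 genes were called lower and 0 higher, against 10.8% and 10.7% of the genes tested. The median log2 fold change (DKO over WT) was -0.55 for the 9 genes and 0.03 over all genes tested.

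The promoters of 5 of the 9 genes were found in RefSeq (build GRCm38.p6, from 250 bases before to 50 after the transcript start, 5′ to 3′ on the gene's strand). The promoters of the 2 called genes, Hc and C8b, are shown beside those of C8a, whose product joins that of C8b in the same complex, and of C3. Capitals mark matches, on either strand, to GTTAAT (a half-site of HNF1 factors), TTGCNNAA (C/EBP factors), TGTTTGC (forkhead factors) or the consensus of the interferon-stimulated response element. None of these matches overlap each other.
C8b, chr4:104766067-104766366, plus strand: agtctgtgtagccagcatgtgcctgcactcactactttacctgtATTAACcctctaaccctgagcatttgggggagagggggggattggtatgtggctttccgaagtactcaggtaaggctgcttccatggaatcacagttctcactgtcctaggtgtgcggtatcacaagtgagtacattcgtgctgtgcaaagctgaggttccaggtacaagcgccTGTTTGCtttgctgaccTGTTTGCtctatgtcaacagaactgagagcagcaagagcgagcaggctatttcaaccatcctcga
C8a, chr4:104876349-104876648, minus strand: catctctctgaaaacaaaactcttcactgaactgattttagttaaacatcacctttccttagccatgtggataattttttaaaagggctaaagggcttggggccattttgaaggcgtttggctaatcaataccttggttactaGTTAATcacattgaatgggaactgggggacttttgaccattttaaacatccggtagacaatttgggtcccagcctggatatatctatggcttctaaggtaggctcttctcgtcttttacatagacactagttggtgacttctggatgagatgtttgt
Hc, chr2:35061363-35061662, minus strand: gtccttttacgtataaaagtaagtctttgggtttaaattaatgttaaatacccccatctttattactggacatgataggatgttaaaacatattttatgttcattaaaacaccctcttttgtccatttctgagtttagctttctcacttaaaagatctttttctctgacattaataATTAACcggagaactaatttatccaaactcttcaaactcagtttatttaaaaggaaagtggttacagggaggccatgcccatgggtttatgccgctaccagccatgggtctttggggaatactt
C3, chr17:57228087-57228386, minus strand: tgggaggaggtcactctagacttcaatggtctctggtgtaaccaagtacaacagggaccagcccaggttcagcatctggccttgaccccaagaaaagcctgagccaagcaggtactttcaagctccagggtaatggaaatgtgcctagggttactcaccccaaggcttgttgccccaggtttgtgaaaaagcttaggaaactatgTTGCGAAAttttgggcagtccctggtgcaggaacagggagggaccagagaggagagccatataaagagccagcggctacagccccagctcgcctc

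The promoters of C8b, C8a and Hc each held 1 match to the HNF1 half-site, which 7.1% of the 32851 promoters of the same length hold. C8b also held 2 matches to the forkhead letters, found in 5.07% of promoters. C3 held 1 match to the C/EBP letters, found in 10.8%. The interferon response element, found in 3.44% of promoters, had 0 matches in the 6 promoters listed for these genes. A match is a description of the letters in this window.

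The libraries held liver RNA as well as erythroid RNA. Counts summed to between 36981439 and 50886469 per library. Vps13a was lower in DKO (log2 fold change -1.29 ± 0.17, SE, edgeR adjusted p = 0.00247), while the count over the whole of Vps13c did not pass the test (0.49 ± 0.24, adjusted p = 0.182) and gives no check of the labels. The defining erythroid genes Klf1 and Gata1 had at least 9622 and 6649 normalized counts (counts scaled to a common library size) in every library. Afp, the α-fetoprotein of hepatoblasts, had 249200 to 350400 normalized counts in WT and 96780 to 342900 in DKO. Alb, for albumin, had 81280 to 115500 in WT and 17210 to 75090 in DKO, with a log2 fold change of -1.05 ± 0.35 (SE, edgeR adjusted p = 0.0627). DESeq2 called it lower (adjusted p = 0.0279), as did edgeR without DKO replicate 2 (adjusted p = 0.0279). Hnf4a, a transcription factor of hepatocytes, had a log2 fold change of -0.14 ± 0.33 (SE, adjusted p = 0.800). All 18 hepatoblast markers listed were tested and 0 were called in either direction, with a median log2 fold change of -0.62. The difference of their mean log2 level (DKO minus WT) was -0.68, which did not exceed the spread between libraries (exact permutation test, two-sided, p = 0.143). DKO replicate 3 stood apart, at -1.86 from the WT mean on the log2 scale, while the other DKO libraries were at -0.61 to -0.06. In such bulk samples, fewer cells of a type and less RNA per cell cannot be told apart.

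Masp1 encodes a protease that starts the lectin pathway by activating its partner MASP2. It had 339, 281, 407 and 697 normalized counts in WT replicates 1 to 4 and 256, 283, 74.5 and 140 in DKO replicates 1 to 4. The groups overlapped by 1 library, DKO replicate 2, which lay just above WT replicate 2. The log2 fold change was -1.19 ± 0.44 (SE, edgeR adjusted p = 0.0820), short of the threshold, and the exact permutation test gave p = 0.0571. DESeq2 called the gene lower (adjusted p = 0.0288). Masp1 (chromosome 16 from 23449417 to 23520815 of GRCm38, minus strand) overlaps Rtp4 on the opposite strand, but shares no exon base with it.

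C4b encodes the fourth component, which both the classical and the lectin routes cleave. Its counts were near the limit of detection, at 29.3, 9.47, 19.1 and 6.12 normalized counts in the WT libraries and 27.3, 31.4, 19.5 and 0 in those of DKO. The groups overlapped over their whole range (log2 fold change 0.29 ± 0.98, SE, edgeR adjusted p = 0.864), and a difference was not detectable at this depth. C4b (chromosome 17 from 34728380 to 34743882, minus strand) has a near-identical copy, C4a, at 26.1 ± 12.0 (WT) and 27.0 ± 27.2 (DKO) normalized counts (SD, 4 libraries each). Alignments of low mapping quality had been removed by the authors, so reads that align equally well to both copies can be missing from both counts.

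C3 encodes the protein on which all routes converge. It had 6091, 5684, 6618 and 7482 normalized counts in the WT libraries and 5758, 9375, 2200 and 7452 in the DKO libraries. In DKO the libraries spread on either side of WT, from replicate 3 below all others to replicate 2 above all others. The means were 6469 ± 776 for WT and 6196 ± 3050 for DKO (SD, 4 libraries each), for a log2 fold change of -0.06 ± 0.34 (SE, edgeR adjusted p = 0.919). It was 0.23 without DKO replicate 3 (adjusted p = 0.355).

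Cfb encodes factor B, the protease of the alternative pathway that joins C3b in a convertase. It had 5620, 5466, 5900 and 7271 normalized counts in the WT libraries and 4673, 6922, 1769 and 5541 in the DKO libraries. Again only DKO replicate 3 lay far below the other libraries (log2 fold change -0.36 ± 0.33, SE, edgeR adjusted p = 0.471). Cfb (chromosome 17 from 34856374 to 34862518, minus strand) shares 2246 exon bases with Gm20547, a gene on the same strand that was removed by the filter on low counts.

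Cfi encodes factor I, a protease that inactivates C3b and C4b. It had 5699, 5487, 5901 and 7197 normalized counts in the WT libraries and 3546, 4944, 1229 and 5239 in the DKO libraries. The highest DKO library lay under the lowest WT library (two-sided exact permutation p = 0.0286, the smallest that 4 against 4 allow), with a log2 fold change of -0.70 ± 0.36 (SE, edgeR adjusted p = 0.191). DKO libraries lay below WT libraries without overlap for 4 of the 9 genes (Cfi, C8g, Hc and C8b), or 44.4%, and for 14.6% of all genes tested. The same held for 6 of the 18 hepatoblast markers. For 0 of 9 they lay above WT without overlap, against 13.5% of all genes.

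Hc encodes C5, the first component of the terminal pathway. It had 1386, 1060, 1356 and 1745 normalized counts in the WT libraries and 456, 723, 116 and 411 in the DKO libraries. The highest DKO library was below the lowest WT library. Hc was called lower, at 1387 ± 280 normalized counts for WT and 426 ± 249 for DKO (SD, 4 libraries each), for a log2 fold change of -1.70 ± 0.43 (SE, edgeR adjusted p = 0.0230). The call was lost without WT replicate 1 or 4 or DKO replicate 4, with edgeR adjusted p-values of 0.0625, 0.0711 and 0.0562, and the log2 fold change was -1.38 without DKO replicate 3 (adjusted p = 0.00784). Hc (chromosome 2 from 34983331 to 35061438, minus strand) shares 76 exon bases with the antisense gene Gm13449, which was too low to be tested.

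C8b had 487, 405, 407 and 538 normalized counts in the WT libraries and 13.7, 72.1, 8.55 and 48.1 in the DKO libraries. All DKO libraries lay far below the WT libraries. C8b was called lower, at 459 ± 65.0 normalized counts for WT and 35.6 ± 30.0 for DKO (SD, 4 libraries each), for a log2 fold change of -3.68 ± 0.60 (SE, edgeR adjusted p = 0.00477), and 0.201% of the genes tested had a lower log2 fold change. With any 1 library left out, C8b was still called, at log2 fold changes from -4.28 to -3.36. The raw counts were 465 to 615 in WT and 7 to 62 in DKO, so that the values of DKO replicates 1 and 3 rest on few counts.

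C8a, the neighbour of C8b on chromosome 4 (104815679 to 104876398, minus strand, against 104766317 to 104804548, plus strand, for C8b), had 491, 585, 745 and 593 normalized counts in the WT libraries and 638, 529, 193 and 338 in the DKO libraries. The groups overlapped (log2 fold change -0.51 ± 0.33, SE, edgeR adjusted p = 0.306). C8g (chromosome 2 from 25498651 to 25501719, minus strand) had 657, 633, 746 and 687 in WT and 374, 587, 294 and 599 in DKO. Its groups did not overlap, but the difference was not called (log2 fold change -0.55 ± 0.24, SE, adjusted p = 0.123).

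**Figure D1:**
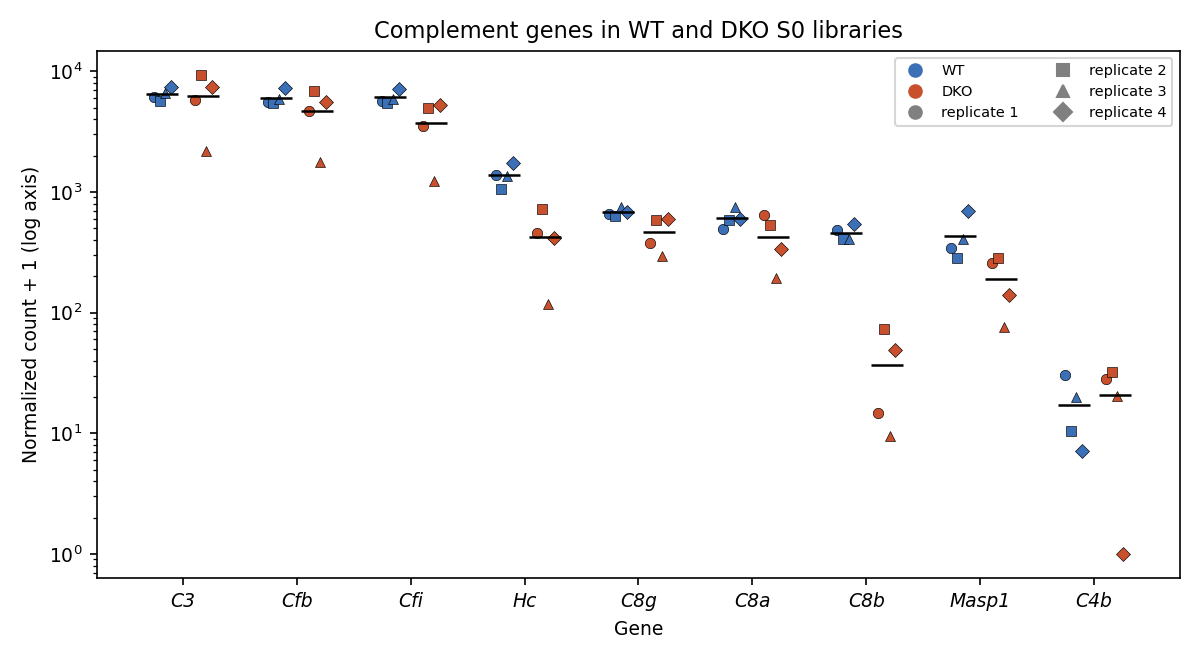
Normalized counts plus 1 of the 9 complement genes on a log axis, 1 point per library, with WT in blue, DKO in red, a symbol for each replicate number and a bar at the group mean. C8b in DKO sits at 8.55 to 72.1 normalized counts, below all WT libraries, while C3 in DKO lies on both sides of WT.

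The ratios of the C8 chains were compared within each library. On the log2 scale, C8a exceeded C8b by 0.01 to 0.87 in WT and by 2.79 to 5.45 in DKO. The mean ratio was 3.47 higher in DKO (exact permutation test, two-sided, p = 0.0286). The ratio of C8b to C8g shifted by -3.49 in DKO (exact permutation test, p = 0.0286). The ratio of C8a to C8g differed by only -0.02 between the groups, less than its spread between libraries (exact permutation test, p = 0.971). These were the 3 pairs that the chains allow. Both pairs that shifted contain C8b, whose own counts did not overlap between the groups, so their tests restate its fall and are no separate evidence.

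The order of the genes by level was taken from normalized counts per kb of exon. The length was that of all annotated exons of a gene together, such as 9833 bases for Masp1 and 2545 for C8b. A gene whose transcripts each use only part of these exons therefore comes out too low in the order. In WT the order was Cfi (2730 ± 347), Cfb (2150 ± 292), C3 (1260 ± 151), C8g (456 ± 32.9), Hc (221 ± 44.8), C8b (180 ± 25.6), C8a (166 ± 28.9), Masp1 (43.8 ± 18.8) and C4b (2.81 ± 1.83, normalized counts per kb, SD, n = 4 each). The ranges of Cfi and Cfb, of Hc and C8b and of C8b and C8a overlapped, and the other neighbours in this order did not. In DKO, C8b moved to the next to last place, at 14 ± 11.8 normalized counts per kb, behind Masp1 at 19.2 ± 9.96, with overlapping ranges. C3, Cfb and Cfi together made up 83.3% to 84.8% of the normalized counts of the 9 genes in WT and 88.0% to 92.2% in DKO, and C3 alone 28.5% to 29.9% and 36.6% to 40.0%.

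Because DKO replicate 3 was low in nearly all genes of liver cells, each gene was set against the hepatoblast markers of the same library, as its log2 level minus the mean log2 level of the 18 markers. The spread between DKO libraries then shrank for the abundant genes. C3 lay at -1.81, -2.03, -2.07 and -1.92 in WT and at -1.51, -1.35, -1.64 and -1.57 in DKO, so that all DKO libraries were above WT, by 0.44 on average (exact permutation test, two-sided, p = 0.0286). On this scale the differences (DKO minus WT) were -1.26 for Hc and -3.42 for C8b, again without overlap (exact permutation p = 0.0286 each), while Cfb, Cfi, C8a, C8g, Masp1 and C4b overlapped, with exact permutation p-values from 0.114 to 0.857.

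Relative to the markers, 2 of 9 complement genes (22.2%) were lower in DKO without overlap, against 1.2% of the genes tested, and 1 of 9 (11.1%) was higher, against 22.8%. The share that was higher is therefore not above the background. The markers themselves did not move together. On this scale 8 of the 18 were lower and 7 higher in DKO without overlap, so that lack of overlap alone sets neither C3 nor the lower genes apart from the markers. Their differences from their mean ran from -0.54 for Alb to 0.66 for Dlk1, a range that holds C3 but not Hc or C8b. Relative to Alb, Afp and Ttr alone, C3 was higher by 0.68 and Cfb by 0.41, both without overlap (exact permutation test, p = 0.0286). The share of all genes that lay higher on that scale was not computed. Against the 18 markers, Alb and Ttr were themselves lower in DKO (-0.54 and -0.38) and Afp higher (0.19), so these values depend on the markers chosen.

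**Figure D2:**
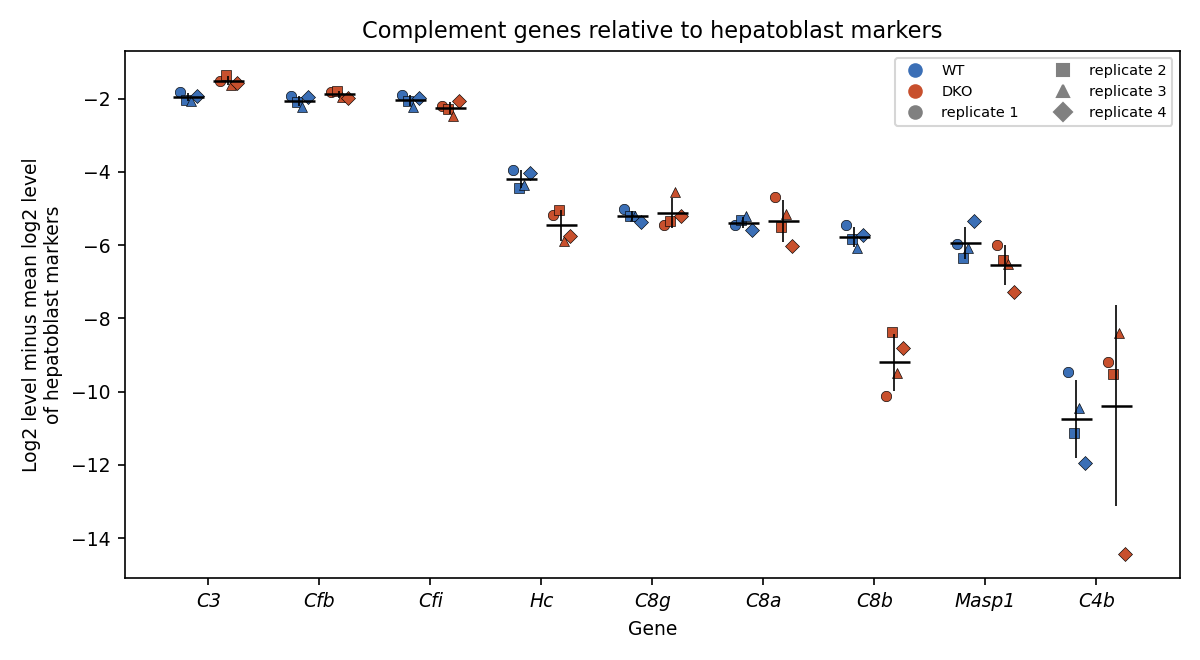
Log2 level of each complement gene minus the mean log2 level of 18 hepatoblast markers in the same library, 1 point per library, with bars at the group mean and SD. Hc and C8b lie lower in all DKO libraries, with mean differences of -1.26 and -3.42, and C3 lies 0.44 higher.

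Library by library, the abundant genes followed the hepatoblast level. With the genotype means removed, Pearson's r with the mean level of the markers over the 8 libraries was 0.99 for C3 and 0.98 for Cfb and Cfi, and 0.93, 0.87 and 0.90 without DKO replicates 2 and 3, which lay farthest from the median. For Hc, C8b and C8g it was 0.93, 0.85 and 0.91, and 0.50, 0.54 and 0.77 without those libraries. For C8a and Masp1 it was 0.75 each and rested on them, since it dropped to 0.04 and 0.22. C4b, at its low counts, had -0.31, and -0.78 without those libraries. All these genes were counted in the same libraries and share their scaling, and the correlations are given as a description.

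**Figure D3:**
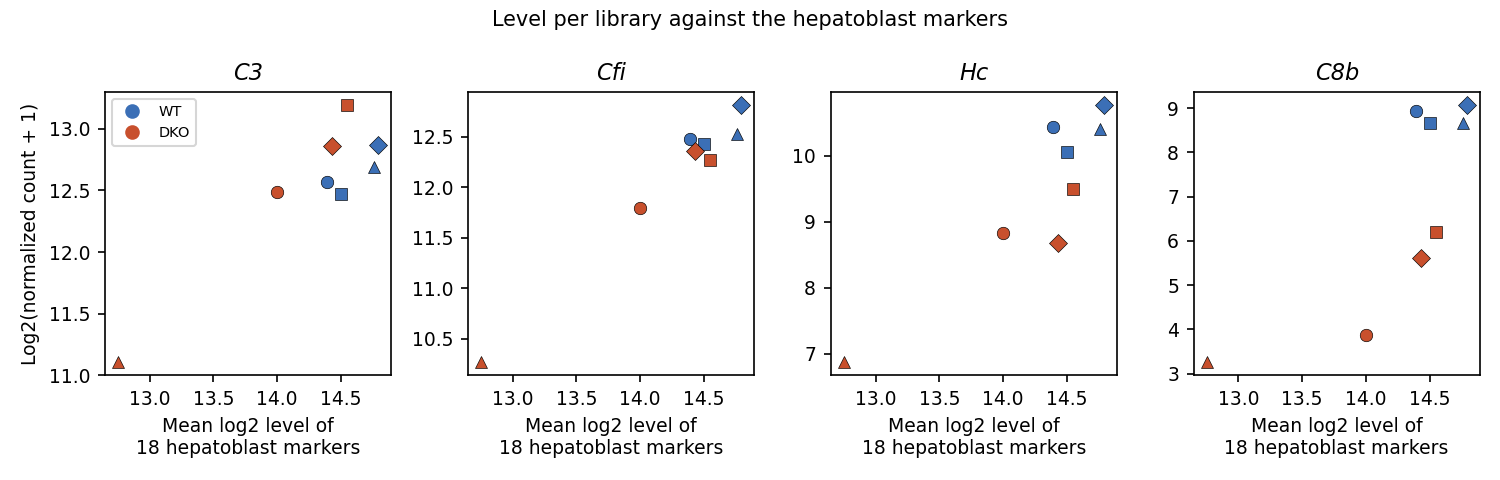
Log2 of the normalized count plus 1 for C3, Cfi, Hc and C8b against the mean log2 level of 18 hepatoblast markers, 1 point per library, with WT in blue, DKO in red and a symbol for each replicate number as in the plot of counts. At like marker levels, near 14.5, DKO replicates 2 and 4 match or exceed WT for C3 and lie below WT for Hc and C8b.

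The library-to-library pattern of the set was taken as the mean over all 9 genes, with equal weight. C4b was included, so its count of 0 in DKO replicate 4 entered the pattern, and a pattern without C4b was not computed. The protein-coding genes most like the set in this pattern were sought among 11576 genes with a mean of at least 100 normalized counts. They were Cyp2d10, Pgap2, Tm7sf2, Klkb1 and Uroc1, with r from 0.972 to 0.995 over the 8 libraries, and from 0.66 to 0.95 without DKO replicates 2 and 3. Of these, Klkb1, for plasma prekallikrein, had means of 294 ± 62.7 (WT) and 45.7 ± 46.6 (DKO) and was called lower (log2 fold change -2.68 ± 0.70, SE, edgeR adjusted p = 0.0251), and Uroc1, for a histidine-degrading enzyme, had means of 285 ± 28.0 and 98.5 ± 59.4 normalized counts (SD, 4 libraries each) and was called lower as well (-1.53 ± 0.47, SE, adjusted p = 0.0442). The call of Klkb1 was lost without WT replicate 1, 2 or 4 or DKO replicate 4 (adjusted p from 0.0547 to 0.0714), and that of Uroc1 without any 1 WT library or DKO replicate 4 (0.0834 to 0.111).

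The rest of the complement system was read from a list of 42 other genes, of which 31 were tested. By the same threshold 2 were higher, 2 lower and 27 not called, with a median log2 fold change of -0.15. Over all genes tested, 6.19% were higher and 2.43% lower. The 3 other terminal components were not tested. C6 and C7 had 0 counts in all 8 libraries, which allows up to 3 counts per library, or 0.059 to 0.0811 CPM. C9, named after its values were seen, had 6.02 to 19.2 normalized counts in WT and 0 in all DKO libraries.

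Among the genes of the classical pathway, 7 of 9 were tested and 0 were called. The lectin pathway had 1 gene higher and 1 lower among 5 tested. Colec10, for a collectin that recognises sugars on microbes, rose in DKO, from 16.8, 31.8, 13.0 and 52.5 normalized counts in WT to 262, 96.5, 76.9 and 145, without overlap (log2 fold change 2.34 ± 0.57, SE, edgeR adjusted p = 0.0197), a call that was lost without WT replicate 1 or 2 (adjusted p = 0.0647 and 0.0527). Fcna, for ficolin A, which is made by macrophages, fell from 18.2 to 55.9 normalized counts in WT to 7.36 in DKO replicate 1 and 0 in the other DKO libraries (edgeR adjusted p = 0.0298). At these few counts the call was lost when any of WT replicates 1, 2 and 4 and DKO replicates 2, 3 and 4 was left out, at adjusted p-values from 0.0539 to 0.0857.

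Regulators on the cell surface protect cells from their own complement. All 5 listed were tested and 0 were called, with log2 fold changes from -0.26 to 0.22. Of 6 receptors tested, C5ar2, for a second receptor of the C5a fragment, rose from 72.3 ± 23.1 to 199.8 ± 31.4 normalized counts (SD, 4 libraries each), for a log2 fold change of 1.46 ± 0.31 (SE, adjusted p = 0.0121). Itgam, for the α chain of complement receptor 3, was lower (log2 fold change -2.82 ± 0.59, SE, adjusted p = 0.0116), and its product CD11b is one of the antigens of the lineage cocktail. Itgb2, for the β chain that pairs with it, had a log2 fold change of -0.61 ± 0.17 (SE, adjusted p = 0.0324), under the fold threshold.

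**Figure D4:**
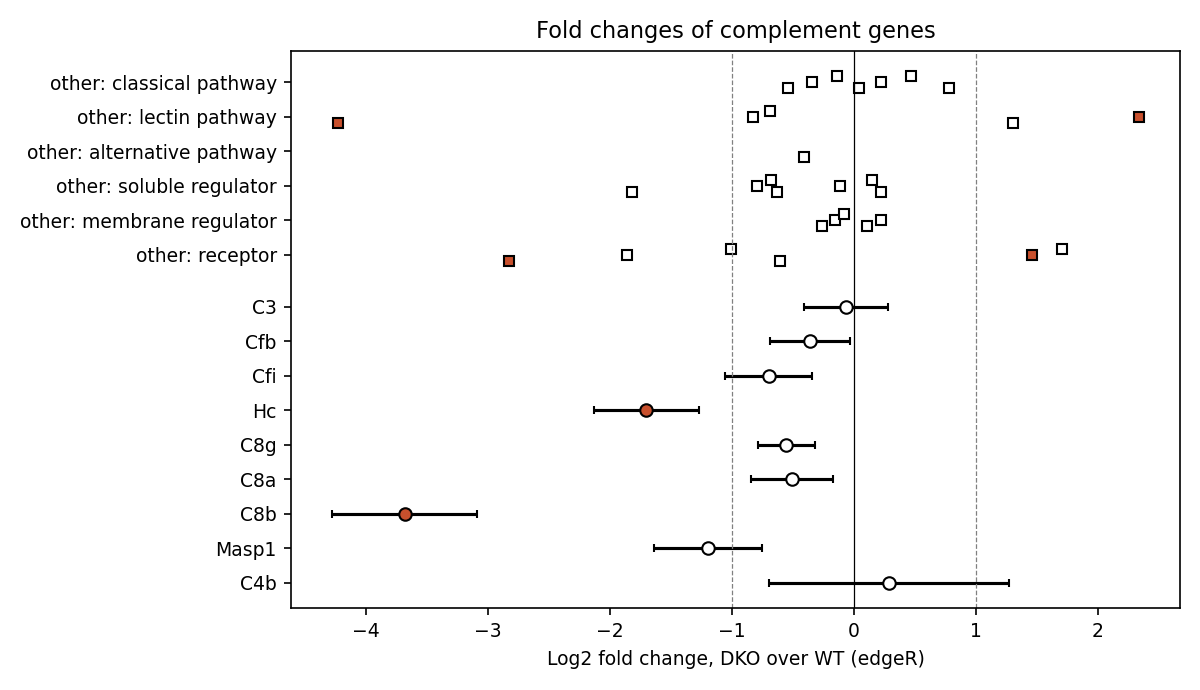
Log2 fold changes (DKO over WT, edgeR) of the 9 complement genes with their standard errors (circles) and of 31 other complement genes by role (squares), with dashed lines at -1 and 1. Filled symbols mark the genes called. C8b at -3.68 and Hc at -1.70 are the called members.

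Markers of other cells moved between the groups beside these results. Of 10 mesenchyme markers, 9 were called higher in DKO and 0 lower, with a summed level of 2072 to 5865 normalized counts in WT and 13240 to 48210 in DKO. Of 10 macrophage markers tested, 2 were lower, with a summed level of 5383 to 7525 in WT and 1043 to 2932 in DKO. Of 10 endothelial markers, 1 was lower, with sums of 5453 to 6469 and 3294 to 4039. Of 10 erythroid markers, 0 were called. Of 20 interferon stimulated genes, 12 were called higher, and the median of the list was 2.51 on the log2 scale. Of the macrophage list, Vsig4 and Cd163 had 0 counts in all 8 libraries and Timd4 in all but WT replicate 4. Adgre1 and Csf1r were above 0 in both groups, but Adgre1 was called lower in DKO (log2 fold change -2.99, edgeR adjusted p = 0.0383). Of the macrophage markers tested, 0 were called higher. Ddx3y, a Y-linked gene, had 2911 to 3354 normalized counts in WT and 2516 in DKO replicate 3, but at most 41.0 in the other DKO libraries. Sex, as far as this Y-linked gene marks it, thus went with genotype in all libraries but DKO replicate 3. Differences by sex and by genotype can therefore hardly be told apart for any gene, Hc and C8b included. DKO replicate 3 also had the lowest level of hepatoblast markers and, C4b aside, of each complement gene of the set. The part played by these differences in the values of the complement genes was not tested.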

How the data were processed

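RNAseq libraries were made by template switching from S0 cells of 4 WT and 4 DKO samples, grouped and numbered as in their labels. The authors trimmed the reads with fastp 0.21.0, mapped them to mm10 with HISAT2 2.2.1, discarded low-quality alignments and deposited counts (whole numbers) for each gene, made with StringTie 1.3.3b and neither normalized nor pooled. Whether the counting used strand is not given in the sources used here. The deposited counts were filtered with filterByExpr, scaled by TMM and tested across all genes with edgeR 4.0.16 (robust quasi-likelihood, Benjamini-Hochberg adjustment, no covariate) in R 4.3.3. The steps were tested on simulated data. Exact permutation tests used log2 of normalized counts with a pseudocount of 1 and all 70 arrangements. Of 52636 gene identifiers, 52489 matched GENCODE M21 (GRCm38, the same assembly as mm10), which gave coordinates and exon lengths.

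The 9 genes and all lists were chosen with earlier results of these data known. The rule named the 9 genes, Alb, Afp, Hnf4a, both targeted genes, up to 3 other complement genes with the largest rise and 3 with the largest fall at an adjusted p under 0.05 and a mean of at least 10 normalized counts, and the 5 genes most alike in pattern. A gene of the list of other complement genes is not reported here and was left out of its counts. Others, such as markers and overlapping genes, were named after their values were seen. Alternatives were DESeq2 1.42.0, other scalings and filters, protein-coding genes only, no fold-change threshold, each library left out and a block for replicate number. Libraries of 1 group differed by far more than counting error (chi-square per gene of at least 18.3), so none was counted as a copy of another.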

Additional observations from a re-analysis of the deposited data

How the results depend on the processing

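Of 9 genes, 2 were lower and 0 higher under library size alone, upper-quartile and RLE scaling, no low-count filter, protein-coding genes only and no fold-change threshold. A minimum of 10 counts in every library removed C8b and C4b from the test, which left 1 gene called lower, and with each library left out the number was 1 to 2. DESeq2 called 3, Masp1 being added. Across all genes, 1867 were higher and 1878 lower with no fold-change threshold, and leaving out 1 library gave 566 to 1148 higher (566 without WT replicate 1, 650 without WT replicate 2 and 633 without WT replicate 4) and 243 to 521 lower (258, 260 and 243 without the same libraries), against 1076 and 423. The median log2 fold change of all genes was 0.14 with upper-quartile scaling and 0.13 without the low-count filter, against 0.03.

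With replicate number as a block, 613 genes were higher and 343 lower. Samples of the same number did not deviate together (correlations across genes from -0.09 to 0.04), so the numbers were not taken as pairs. Under the block, C8b and Hc stayed called (edgeR adjusted p = 0.0187 and 0.0453) and C4b had a log2 fold change of -0.158 and C4a of -0.762. Fcna and Uroc1 lost their calls under the block (adjusted p = 0.0512 and 0.0708), Fcna and Uroc1 without the low-count filter (0.0515 and 0.0528) and Uroc1 with upper-quartile scaling (0.0589).

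Among the genes named, signs turned only in values that passed no test. C3 had a log2 fold change of 0.05 with upper-quartile scaling and from -0.34 to 0.23 with 1 library left out, while C4b ran from -0.038 to 0.747, C4a from -0.77 to 0.462 and Hnf4a from -0.403 to 0.125. Relative to the hepatoblast markers with 1 library left out, the difference ran from -0.30 to 1.71 for C4b, from -0.17 to 0.28 for C8a and from -0.13 to 0.17 for C8g. With Alb, Afp and Ttr as the markers, 2 genes were above WT in place of 1, and Cfi was at 0.031 in place of -0.21. Over the 10 alternatives of marker list, pseudocount and library, the relative difference ran from 0.387 to 0.682 for C3, from -1.40 to -1.02 for Hc and from -3.70 to -3.11 for C8b, with an exact permutation p of 0.0286 throughout, which is the smallest the test can give. The counts of C4b and of C8b in DKO limit the precision of these genes. The causes of these changes were not tested.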

Other observations

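Genes of the acute phase, which liver cells raise in inflammation and most of which encode secreted plasma proteins, were read from a list of 16 genes that also holds the intracellular metallothioneins Mt1 and Mt2. Of these 16 genes, 12 were tested. Only Lcn2, for the iron-siderophore carrier lipocalin 2, was called higher and 0 were called lower, with a median log2 fold change of -0.29. Lcn2 rose from 12.3 ± 10.1 to 629 ± 390 normalized counts (SD, n = 4 each), and its log2 fold change was 5.65 ± 0.73 (SE, edgeR adjusted p = 0.00248). Hp, for haptoglobin, had 1182 ± 168 in WT and 375 ± 273 in DKO and was not called (log2 fold change -1.66 ± 0.61, SE, edgeR adjusted p = 0.0808), but was called lower without DKO replicate 1 (adjusted p = 0.00780) or 2 (0.0461). Both genes were named after their values were seen.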
